A study of Mus musculus with 18 samples.

Results

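The genes of epithelial cell junctions and simple-epithelium keratins were taken by name from a gene table of sorted mouse embryo cells: claudins (Cldn followed by a number), Krt7, Krt8, Krt18, Krt19 and Epcam, Tjp1, Tjp3, Ocln, Cgn, F11r and Marveld1 to Marveld3, the desmosome genes Dsp, Dsg2, Dsc2, Jup and Pkp1 to Pkp4, the polarity genes Crb1 to Crb3, Pard3 and Pard6b, and the epithelial regulators Esrp1, Esrp2 and Grhl1 to Grhl3. This gave 55 of 24498 genes, chosen by symbol and not by level. The study sequenced RNA of cells from embryos at embryonic day 7.5, during gastrulation, sorted by the red fluorescence of FoxA2 fused to tagRFP, with 3 libraries for each of 6 groups. FoxA2 is a forkhead transcription factor of node, notochord and endoderm. The 3 ΔHx groups (High, Mid and Neg) came from embryos homozygous for FoxA2-∆Hx-tagRFP, a fusion that lacks 10 residues of an α-helix of FoxA2, which the series describes as critical for activating targets. The 3 WT groups (High, Mid and Neg) came from embryos homozygous for FoxA2-WT-tagRFP, the fusion with the helix, so every group carried the tag on both alleles. High cells were brighter than cells with a single tagged allele, Mid cells lay between autofluorescence and the brightest such cells, and Neg cells had no tag signal. As models these groups are limited in that a sort pooled about 10 unsexed embryos of a mixed C57Bl6/J and CD-1 background from superovulated females, that the extra-embryonic part had been taken off for genotyping, and that a gate holds several cell types.

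Epithelial cells are sealed at their upper border by tight junctions, in which claudins form the strands that decide which ions and molecules pass between cells, while scaffold proteins tie the strands to actin. Below them desmosomes rivet neighbouring cells together and anchor keratin filaments, which are built from pairs of a type I and a type II keratin. At gastrulation, cells of the epiblast, an epithelium, lose these contacts in the primitive streak to become mesoderm, whereas endoderm, node and notochord cells keep or rebuild them; the Crumbs and Par proteins set the upper border of the cells, Grainyhead-like factors activate junction genes and Esrp proteins set epithelial splice forms.

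Between 12302196 and 17194136 reads were counted in genes per library, and the number of genes detected ran from 15649, in ΔHx High replicate 3, up to 17917. Foxa2 itself had 1848, 2078 and 2385 normalised reads in ΔHx High, 547, 611 and 1229 in ΔHx Mid and 62.5, 55.1 and 43.4 in ΔHx Neg, against 2483, 1742 and 1556 in WT High, 871, 812 and 621 in WT Mid and 40.6, 20.3 and 23.6 in WT Neg. Foxa2 thus followed the gates in both genotypes, but counts over the whole gene do not show a small deletion and so do not check the genotype labels. The gates also differed in other cell types' markers. The 6 definitive endoderm markers summed to 15820 to 20960 in High, 14653 to 18065 in Mid and 1057 to 1473 in Neg. The summed value of 6 node and notochord markers was 22816 to 35762 in High, 3570.3 to 6540.3 in Mid and 1678 to 3354 in Neg; that of 8 visceral endoderm markers was 1352 to 7495 in High, 33251 to 41477 in Mid and 718 to 1902 in Neg. For the 10 trophoblast and extra-embryonic ectoderm markers, which mark another keratin-rich epithelium, the sum was 649 to 1133 in High, 2555 to 3568 in Mid and 2520.1 to 3246 in Neg. In the limma test described below, 5 of the 9 tested markers were called lower in Mid than in Neg in ΔHx, and 6 in WT. In each genotype 1 was called higher. All tested genes gave 16.5% lower and 17.9% higher in ΔHx, and 15.4% and 17.4% in WT. Prl3d1 and Tpbpa had no read in ΔHx High or WT Mid. Prl3d1 had none in WT High either, and Tpbpa none in WT Neg. All 10 markers had reads in ΔHx Mid and ΔHx Neg. A single library stood apart: 8 parietal endoderm markers summed to 231846 in WT Mid replicate 1, against 38699 and 62036 in the other WT Mid libraries and 16045 to 22076 in ΔHx Mid. The part of these cell types in the results below was not tested.

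Taken as a whole, the junction and keratin genes were highest in the cells with most FoxA2 and lowest in the cells without its signal, in both genotypes. Their summed value was 85659.5, 84686 and 80643 normalised reads in the 3 ΔHx High libraries, 47315, 48026 and 57105 in ΔHx Mid and 19790.2, 20918 and 20906 in ΔHx Neg. In WT it was 86810.2, 85668 and 94765 in High, 40494, 56331 and 54916 in Mid, with 18769, 20544 and 20195 in Neg. No library of a gate overlapped those of another gate, and WT Mid replicate 1, with the high parietal endoderm markers, had the lowest Mid sum. In sorted pools fewer cells of a type and less RNA per cell cannot be told apart.

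Krt8, Krt18 and Cldn6 made up most of these sums. Together they held 63.2% of the members' summed values in ΔHx High, 52.0% in ΔHx Mid and 31.1% in ΔHx Neg, against 64.3%, 52.1% and 31.6% in the same gates of WT. Per kb of their principal transcript, which allows genes to be compared, the highest levels in WT High were those of Krt8 (13001 per kb), Krt18 (12312), Cldn6 (8726), Krt19 (2623) and Epcam (2183). In WT Neg the order was Krt18 (1479 per kb), Epcam (1409), Krt8 (1289.7) and Cldn6 (1002), so that Epcam, which changed least with the gate among them, moved up.

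Gates were compared gene by gene with limma, a linear model, on log2(value + 1), a scale that understates changes of low genes; a gene was called at a two-sided adjusted p under 0.05 over all 14711 tested genes. Of the 55 members 46 reached the required 10 normalised reads in 3 or more libraries. In High against Neg, 33 members were called higher and 4 lower in ΔHx, beside 21.5% and 21.1% of all tested genes, and 36 higher and 3 lower in WT, beside 22.6% and 21.8%. In Mid against Neg, 29 were called higher and 1 lower in ΔHx (all genes 17.9% and 16.5%), and 31 higher and 3 lower in WT (all genes 17.4% and 15.4%). In High against Mid, 16 were called higher and 4 lower in ΔHx (all genes 13.3% and 12.3%), and 15 higher and 3 lower in WT (all genes 12.1% and 12.4%). The 3 gate comparisons of a genotype share libraries and are not independent. The median log2 change of the 46 genes was 1.51 in ΔHx and 1.51 in WT for High against Neg, 1.27 and 1.19 for Mid against Neg, and 0.19 and 0.37 for High against Mid, while the median over all tested genes lay between -0.014 and 0.018. Members pass this filter more easily where 1 group is high, so these counts describe the 46 genes and not the 9 claudins left untested. Without WT Mid replicate 1 the WT counts were 29 higher and 3 lower for Mid against Neg and 12 higher and 3 lower for High against Mid; without ΔHx High replicate 3 the ΔHx counts were 34 and 3 for High against Neg and 16 and 3 for High against Mid.

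**Figure D1:**
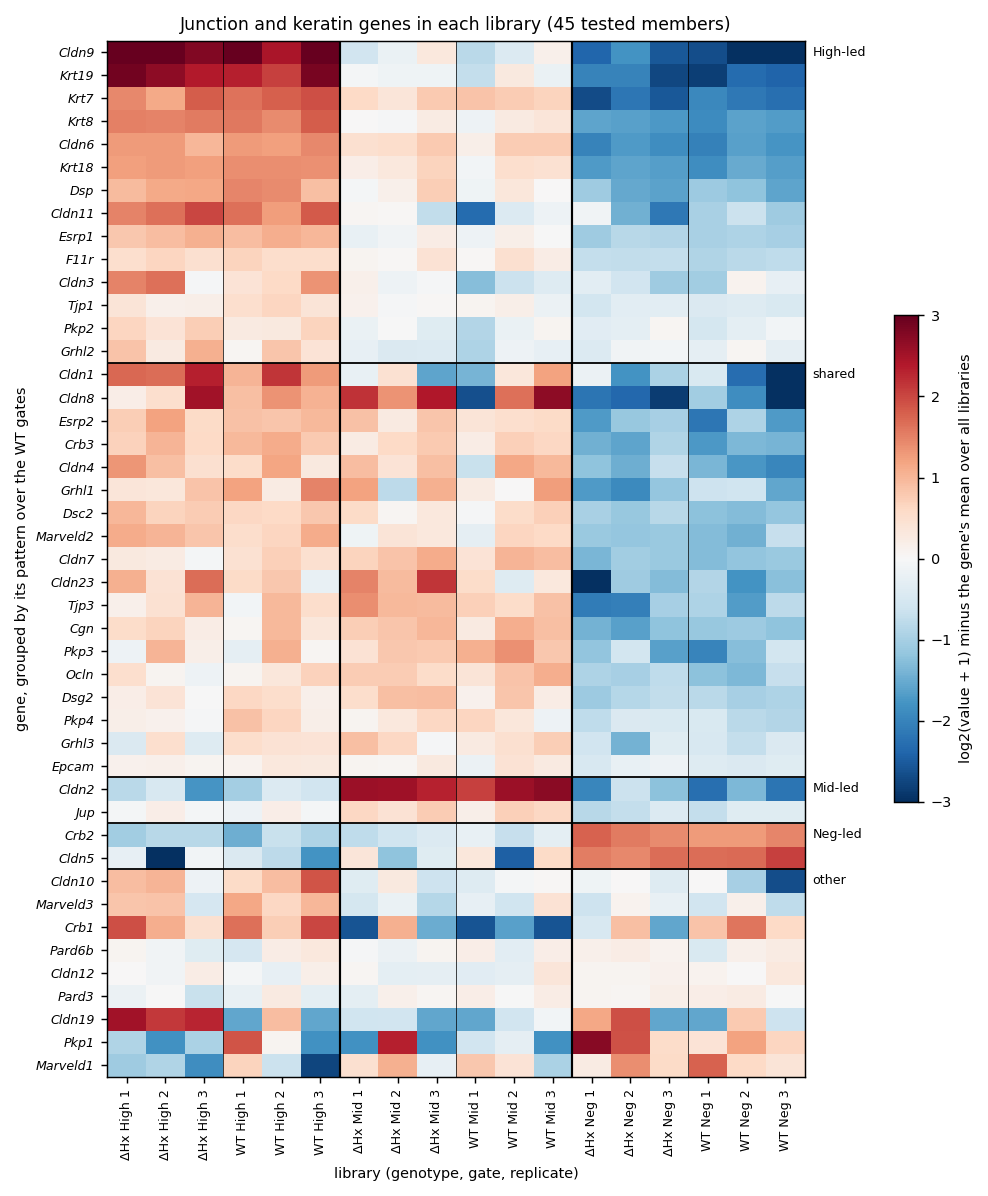
Each row is 1 of 45 tested members and each column 1 library; colour gives log2(value + 1) minus the gene's mean over the 18 libraries, drawn between -3 and 3, with rows grouped by their pattern over the WT gates. Most rows are red in the 6 High libraries and blue in the 6 Neg libraries, Cldn2 is red in Mid, and Crb2 and Cldn5 are red in Neg.

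Krt8 and Krt18 had the highest levels per kb of all members in High, and their upstream bases are shown because the genes lie side by side, 23697 bases apart on chromosome 15, and moved together. Krt8 (type II) lies at chr15:101996698-102004482, - strand, and its partner Krt18 (type I) at chr15:102028180-102032027, + strand, in the GENCODE annotation of mm10. The bases up to 250 before the RefSeq start on GRCm38.p6 are printed 5′ to 3′ as far as they lie outside the GENCODE gene, chr15:102004483-102004592 on the - strand for Krt8 and chr15:102027966-102028179 on the + strand for Krt18. Capitals mark CAGGTG or its complement CACCTG, the E-box that Snail and Zeb repressors can bind.
Krt8: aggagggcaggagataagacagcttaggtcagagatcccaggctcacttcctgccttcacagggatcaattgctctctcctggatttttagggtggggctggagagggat
Krt18: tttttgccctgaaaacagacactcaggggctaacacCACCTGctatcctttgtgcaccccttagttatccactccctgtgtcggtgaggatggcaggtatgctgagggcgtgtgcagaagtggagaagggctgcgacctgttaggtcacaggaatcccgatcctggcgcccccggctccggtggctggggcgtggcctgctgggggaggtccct
The Krt18 bases hold 1 copy, read as CACCTG along the gene, and the 110 bases printed for Krt8, which are only part of its window, hold none. Near-identical copies of these keratin genes elsewhere in the genome could take or give reads in the counting.

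Krt8 had 23774, 23207 and 24490.0 normalised reads in ΔHx High, 8368, 8079 and 9906 in ΔHx Mid and 2768, 2686 and 2522 in ΔHx Neg. It had 24831, 22339 and 29196 normalised reads in WT High, 7524, 10034 and 10763 in WT Mid and 2255, 2732 and 2589 in WT Neg. The High libraries lay above all Mid libraries and these above all Neg libraries, in each genotype. Krt8 rose 8.96-fold in ΔHx High over ΔHx Neg (log2 change 3.16 ± 0.12, adjusted p = 1.50e-12) and 10.1-fold in WT High over WT Neg (log2 change 3.33 ± 0.12, adjusted p = 5.83e-13). Krt18 had 16011, 16418 and 15773 normalised reads in ΔHx High, 7810.5, 8477 and 10819 in ΔHx Mid and 2075, 2263 and 2156 in ΔHx Neg. In WT embryos it had 17669, 17949 and 17457 in High, 6416, 9618 and 9303 in Mid, with 1846, 2389 and 2141 in Neg. Krt18, its partner, showed the same order without overlap, with changes of 2.89 ± 0.13, adjusted p = 1.18e-11, in ΔHx and 3.06 ± 0.13, adjusted p = 4.84e-12, in WT for High against Neg. The ratio of Krt18 to Krt8, per kb, was 0.920 ± 0.0432 in ΔHx High, 1.40 ± 0.112 in ΔHx Mid and 1.11 ± 0.0783 in ΔHx Neg, and 0.960 ± 0.140 in WT High, 1.22 ± 0.0791 in WT Mid and 1.14 ± 0.0410 in WT Neg (SD, n = 3 each). Over single libraries it ran from 0.815 in WT High to 1.49 in ΔHx Mid. The mean was highest in Mid in both genotypes, without overlap with the other gates in ΔHx, while WT Mid overlapped WT Neg.

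Krt19, a type I keratin without a tail domain, changed far more than the pair. It had 5623, 4902 and 3936 normalised reads in ΔHx High, 730.4, 693 and 697 in ΔHx Mid and 188, 188 and 113 in ΔHx Neg. In WT it had 3797, 3156 and 5451 normalised reads in WT High, 460.3, 929 and 656 in WT Mid and 106, 152 and 141 in WT Neg. In each genotype the libraries of the 3 gates did not overlap. Its High libraries held 29.6 times the Neg mean in ΔHx (log2 change 4.90 ± 0.24, adjusted p = 2.52e-11) and 31.1 times in WT (log2 change 4.93 ± 0.24, adjusted p = 1.51e-11). Between High and Mid it rose by 2.75 ± 0.24 log2 in ΔHx and 2.62 ± 0.24 in WT, against 1.44 and 1.44 for Krt8. In ΔHx embryos Krt7 had 579, 468 and 750.4 normalised reads in High, 322, 274 and 366 in Mid, with 32.4, 46.7 and 36.1 in Neg. The WT values were 659, 745 and 819 in High, 385, 366 and 342 in Mid, with 55.4, 47.7 and 43.5 in Neg. Krt7, a type II keratin of glandular and early extra-embryonic epithelia, had separate ranges in the 3 gates and was called higher in High and in Mid than in Neg in both genotypes, with 15.6-fold in ΔHx and 15.2-fold in WT for High over Neg. Epcam had 4085, 4186 and 3957 normalised reads in ΔHx High, 4003, 3922 and 4591 in ΔHx Mid and 2713, 3218 and 3388 in ΔHx Neg. Its WT values were 4078, 4663 and 4616 in High, 3314, 5039 and 4511 in Mid, with 2896, 2779 and 2946 in Neg. Epcam, an adhesion molecule that binds claudin-7, was called higher in High and in Mid than in Neg, but by 0.40 ± 0.12 log2 in ΔHx and 0.63 ± 0.12 in WT for High, and High and Mid overlapped. The ΔHx calls were lost without ΔHx Neg replicate 1 (High against Neg 0.30, Mid against Neg 0.33) and, for Mid against Neg, without ΔHx Mid replicate 3 (0.36).

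**Figure D2:**
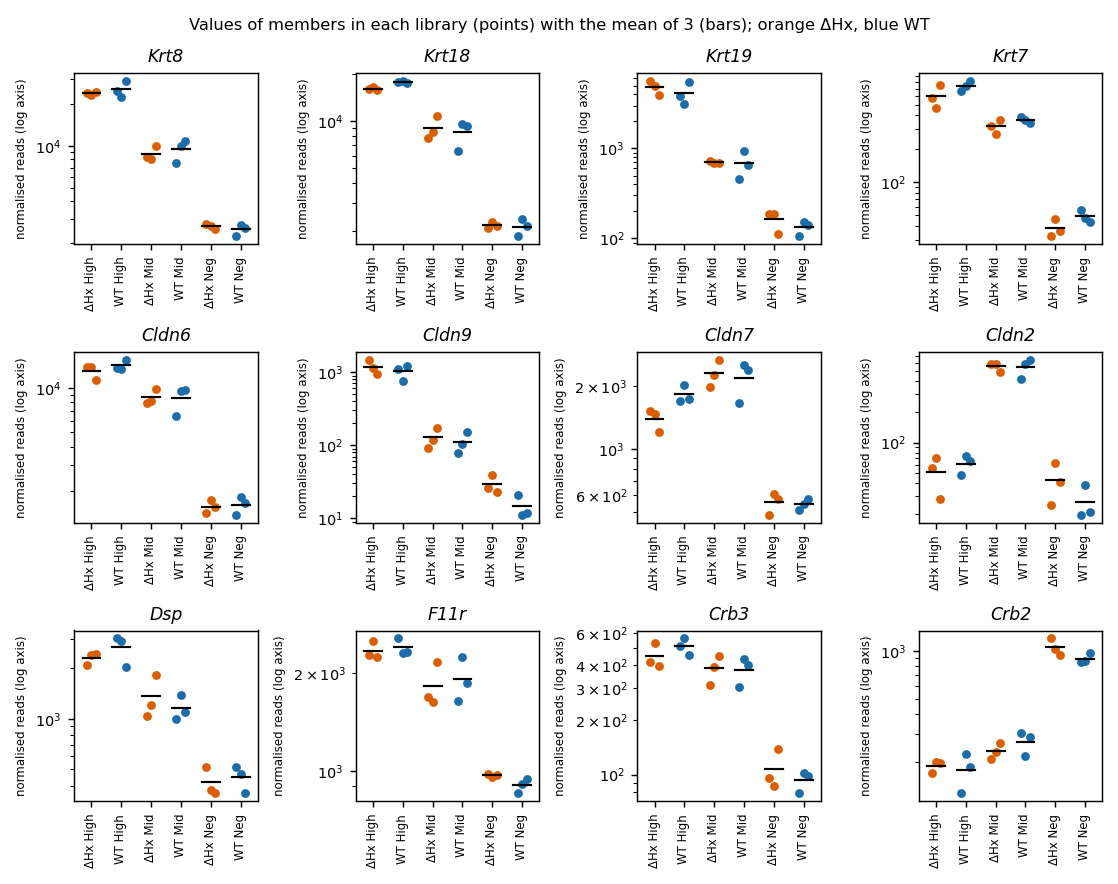
Normalised reads of 12 members on log axes, 1 point a library and a bar for the mean of 3, ΔHx orange and left of WT, blue, in each gate. Krt8, Krt18, Krt19, Krt7, Cldn6, Cldn9 and Dsp step down from High through Mid to Neg, Cldn7 is highest in Mid in mean, Cldn2 stands high in Mid alone, and Crb2 is highest in Neg.

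Of 23 claudins 14 were tested. For High against Neg 9 rose and 1 fell in ΔHx, and 11 rose and 1 fell in WT. All tested genes gave 21.5% higher and 21.1% lower in ΔHx, and 22.6% and 21.8% in WT. In Mid against Neg 7 claudins rose in ΔHx, and 8 rose and 1 fell in WT. There all tested genes gave 17.9% higher and 16.5% lower in ΔHx, and 17.4% and 15.4% in WT. Cldn6, a claudin of early embryonic epithelia, and its close paralog Cldn9 lie tail to tail on chromosome 17, 137 bases apart, at chr17:23679249-23682446, + strand, and chr17:23682584-23684026, - strand. The libraries do not mark strand, so reads running past the end of one gene could be counted in the other. The upstream bases of Cldn6 (chr17:23679115-23679248 on the + strand), the claudin that dominates High, are printed below, with CAGGTG in capitals. The Cldn6 E-box between the GENCODE and RefSeq starts (chr17:23679260-23679289 on the + strand) follows. The upstream bases of Cldn2 (chrX:139800558-139800807 on the + strand), the only claudin called lower in High than in Mid in both genotypes, come last.
Cldn6: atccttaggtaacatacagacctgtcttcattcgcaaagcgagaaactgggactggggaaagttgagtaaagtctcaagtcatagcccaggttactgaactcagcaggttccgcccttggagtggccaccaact
Cldn6 E-box: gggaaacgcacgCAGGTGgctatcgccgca
Cldn2: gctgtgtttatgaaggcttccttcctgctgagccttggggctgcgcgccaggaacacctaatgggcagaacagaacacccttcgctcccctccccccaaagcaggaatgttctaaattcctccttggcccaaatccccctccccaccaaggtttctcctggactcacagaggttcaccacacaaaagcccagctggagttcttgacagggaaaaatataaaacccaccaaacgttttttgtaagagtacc
The 250 bases before the RefSeq start hold 1 copy in Cldn6 and none in Cldn2.

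Cldn6 had 13839.6, 13807 and 11342 normalised reads in ΔHx High, 7938, 8197 and 9762 in ΔHx Mid and 1419, 1737 and 1561 in ΔHx Neg. It had 13656, 13306 and 15499 normalised reads in WT High, 6435, 9568 and 9680.0 in WT Mid and 1388, 1823 and 1663 in WT Neg. High lay above Mid and Mid above Neg without overlap. Cldn6 rose 8.27-fold in ΔHx (log2 change 3.05 ± 0.14, adjusted p = 1.26e-11) and 8.71-fold in WT (log2 change 3.13 ± 0.14, adjusted p = 7.40e-12) for High over Neg. Cldn9 had 1485, 1128 and 942 normalised reads in ΔHx High, 92.1, 119 and 172 in ΔHx Mid and 25.7, 39.2 and 22.7 in ΔHx Neg. In WT libraries it reached 1119.7, 755 and 1201 in High, 78.1, 103 and 152 in Mid, with 20.9, 11.2 and 11.8 in Neg. Cldn9 had the largest change of a called member in High against Neg in both genotypes, 5.31 ± 0.31 log2 in ΔHx and 6.06 ± 0.31 in WT. Its ratio to Cldn6, per kb, was 0.102 ± 0.0162 in ΔHx High, 0.0164 ± 0.00339 in ΔHx Mid and 0.0207 ± 0.00452 in ΔHx Neg. In WT the ratio was 0.0810 ± 0.0151 in High, 0.0145 ± 0.00284 in Mid and 0.0106 ± 0.00553 in Neg. High and Mid ratios did not overlap in either genotype, while Mid and Neg ratios overlapped in both. Whether reads of Cldn6 entered the Cldn9 values was not tested.

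Cldn7 had 1519.7, 1469 and 1201 normalised reads in ΔHx High, 1985, 2273 and 2679.7 in ΔHx Mid and 483, 607 and 573 in ΔHx Neg. WT embryos gave 1701, 2036 and 1737 in High, 1666, 2534 and 2386 in Mid, with 507, 547 and 572 in Neg. Cldn7, the claudin that pairs with Epcam, was called higher in High and in Mid than in Neg in both genotypes, up to 4.17-fold in ΔHx Mid and 4.05-fold in WT Mid. In High against Mid it fell by 0.72 log2 in ΔHx (adjusted p = 0.00126), while WT gave -0.25 ± 0.15, adjusted p = 0.254; the difference of these changes had an adjusted p of 0.782. In ΔHx embryos Cldn12 had 798, 734 and 923 normalised reads in High, 817, 646 and 651 in Mid, with 828, 831 and 854 in Neg. The WT values were 761, 667 and 887 in High, 625, 648 and 1015 in Mid, with 849, 799 and 972 in Neg. Cldn12, a claudin without the usual scaffold-binding tail, was called in none of the 6 gate comparisons, and its gates overlapped except for ΔHx Mid and ΔHx Neg. As a share of the claudins' summed level per kb, Cldn12 held 2.11% ± 0.505 in ΔHx High, 2.46% ± 0.547 in ΔHx Mid and 12.7% ± 1.03 in ΔHx Neg, and 1.81% ± 0.141 in WT High, 2.71% ± 0.585 in WT Mid and 13.1% ± 1.71 in WT Neg. The share of Cldn6 was 76.3% ± 1.10 in ΔHx High, 68.7% ± 0.334 in ΔHx Mid and 54.9% ± 1.03 in ΔHx Neg, and 76.8% ± 0.793 in WT High, 69.8% ± 0.246 in WT Mid and 56.0% ± 2.59 in WT Neg (SD, n = 3 each). Neg cells thus had a more mixed set of claudin transcripts at a lower total.

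Cldn2 forms pores for cations and water in leaky epithelia such as the kidney proximal tubule. It was the only claudin called higher in Mid than in both other gates in both genotypes. Its share of the claudins' summed level per kb was 2.39% in ΔHx Mid and 2.39% in WT Mid, well below those of Cldn6 and Cldn7. Cldn2 had 56.1, 70.6 and 28.0 normalised reads in ΔHx High, 589.9, 584 and 494 in ΔHx Mid and 24.6, 62.5 and 41.3 in ΔHx Neg. In WT the values were 48.0, 73.7 and 65.6 in High, 415, 587 and 648 in Mid, with 19.7, 38.5 and 20.8 in Neg. Every Mid library stood above every High and Neg library. In Mid it held 13.0 times the Neg mean in ΔHx and 20.9 times in WT, and in High against Mid it fell by 3.50 ± 0.36 log2 in ΔHx and by 3.12 ± 0.36 in WT. The visceral endoderm markers, which moved the same way over the gates, are given above, and their part in this result was not tested. Cldn5 had 12.3, 0 and 14.0 normalised reads in ΔHx High, 19.5, 5.85 and 11.4 in ΔHx Mid and 44.6, 42.0 and 49.6 in ΔHx Neg. In WT it stood at 10.8, 8.19 and 3.55 in High, 19.2, 1.91 and 22.7 in Mid, with 49.3, 50.7 and 64.3 in Neg. Cldn5, the claudin of endothelium, had more reads in every Neg library than in any High or Mid library. In High it fell by 2.99 ± 0.87 log2 against Neg in ΔHx (adjusted p = 0.00904) and by 2.81 ± 0.87 in WT (adjusted p = 0.0127). These calls were lost without ΔHx High replicate 2 (-1.71) in ΔHx and without WT High replicate 3 (-2.41) in WT, and the WT call for Mid against Neg (-2.31) without WT Mid replicate 2 (-1.34), WT Neg replicate 1 (-2.38), WT Neg replicate 2 (-2.36) or WT Neg replicate 3 (-2.19). This Mid call was also lost with a pseudocount of 0.5 (adjusted p = 0.0751), no filter (adjusted p = 0.0830), equal totals without Rn45s (adjusted p = 0.0512) or edgeR (adjusted p = 0.0593). The 6 blood and endothelium markers summed to 252 to 485 in High, 239.7 to 311 in Mid and 1416 to 2852 in Neg, with Hba-x at 0 in High; their part in the Cldn5 result was not tested.

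The other 8 tested claudins had group means of at most 175. Cldn1 (skin barrier), Cldn4, Cldn8 and Cldn23 were called higher in High than in Neg in both genotypes, by 2.02 (Cldn4) to 3.54 (Cldn8) log2 in ΔHx and by 1.70 (Cldn23) to 3.51 (Cldn1) in WT. Cldn11, a claudin of myelin and Sertoli cells, averaged 151 ± 28.1 in ΔHx High, 39.5 ± 11.5 in ΔHx Mid and 22.2 ± 16.9 in ΔHx Neg, and 138 ± 28.2, 27.3 ± 16.8 and 23.8 ± 4.03 in the same gates of WT (SD, n = 3 each), with High above the other gates without overlap. Cldn3 averaged 175 ± 88.6 in ΔHx High and 48.6 ± 12.7 in ΔHx Neg (log2 change 1.69 ± 0.41, adjusted p = 0.00272), and 136 ± 49.8 in WT High and 60.1 ± 22.9 in WT Neg (log2 change 1.18 ± 0.41, adjusted p = 0.0263); it shares exon bases with Wbscr25 on the other strand. Cldn10 was called higher in High than in Neg in WT (2.34) and gave 0.77 in ΔHx. Cldn19 had 47 reads over the ΔHx High libraries against 2 over ΔHx Mid, a ratio of 20.2 per depth (exact 95% interval 5.30 to 172, counting error only). The 9 untested claudins were Cldn13 to Cldn18, Cldn20, Cldn22 and Cldn24; Cldn17 had no read, and the highest value among them was 12.0 for Cldn20 in WT High replicate 1.

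Beyond claudins, 9 further tight junction genes were tested, and for High against Neg 7 rose and 1 fell in both ΔHx and WT. All tested genes gave 21.5% higher and 21.1% lower in ΔHx, and 22.6% and 21.8% in WT. In Mid against Neg 6 of the 9 rose in ΔHx and 7 in WT, beside 17.9% and 17.4% of all tested genes. F11r had 2267, 2504 and 2241 normalised reads in ΔHx High, 1692, 1630.4 and 2161 in ΔHx Mid and 983, 961 and 970.4 in ΔHx Neg. It had 2559, 2308 and 2326 normalised reads in WT High, 1638, 2245 and 1872 in WT Mid and 855, 914 and 945 in WT Neg. F11r, an adhesion molecule of the immunoglobulin family also called JAM-A, stood without overlap above Neg in both High (2.41-fold in ΔHx, 2.65-fold in WT) and Mid. Its smaller steps in High against Mid, 0.36 ± 0.11, adjusted p = 0.0231, in ΔHx and 0.33 ± 0.11, adjusted p = 0.0380, in WT, were lost in ΔHx without ΔHx High replicate 2 (0.31), ΔHx Mid replicate 1 (0.31) or ΔHx Mid replicate 2 (0.29), and in WT without WT High replicate 1 (0.28), WT High replicate 2 (0.36), WT High replicate 3 (0.35), WT Mid replicate 1 (0.22) or WT Mid replicate 3 (0.32). This WT call was also lost with no filter (adjusted p = 0.0553), edgeR (adjusted p = 0.0569) or the compared groups alone (adjusted p = 0.129). Tjp1 had 1464, 1263 and 1267 normalised reads in ΔHx High, 1234, 1109 and 1162 in ΔHx Mid and 775, 903 and 902 in ΔHx Neg. The WT libraries held 1591, 1774 and 1468 in High, 1203, 1267 and 999 in Mid, with 841, 857 and 816 in Neg. Tjp1, a scaffold that ties claudin strands to actin, lay above Neg in every High and Mid library and rose by 0.63 ± 0.11 log2 in ΔHx High and 0.94 ± 0.11 in WT High over Neg.

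Cgn had 761, 819.6 and 604 normalised reads in ΔHx High, 868, 926 and 1029 in ΔHx Mid and 194, 168 and 225 in ΔHx Neg. WT libraries held 543, 1020.3 and 659 in High, 626, 1097 and 964 in Mid, with 236, 244 and 224 in Neg. Cgn, cingulin of the tight junction plaque, rose in High (3.72-fold in ΔHx, 3.15-fold in WT) and in Mid (4.81-fold in ΔHx, 3.81-fold in WT) over Neg, and High and Mid overlapped in WT.

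Ocln (occludin), Marveld2 (tricellulin, at corners where cells meet) and Tjp3 were called higher in High and in Mid than in Neg in both genotypes, by 1.04 (Ocln) to 2.25 (Tjp3) log2 in ΔHx High and by 1.46 (Ocln) to 1.90 (Marveld2) in WT High. Tjp3 shares exon bases with Apba3 on the other strand. Marveld3 was called higher in High than in Neg in WT (1.33), and gave 0.64 in ΔHx. Marveld1 had 7.89, 9.06 and 4.12 normalised reads in ΔHx High, 25.1, 38.0 and 14.8 in ΔHx Mid and 21.2, 48.5 and 26.8 in ΔHx Neg. In WT embryos it had 28.8, 10.9 and 1.77 in High, 31.5, 23.9 and 8.72 in Mid, with 62.8, 27.4 and 23.6 in Neg. Marveld1, a further MARVEL-domain protein, was the gene of this group that was lower in High than in Neg; it fell by 2.02 ± 0.70 log2 in ΔHx (adjusted p = 0.0261) and by 1.83 ± 0.70 in WT (adjusted p = 0.0409). WT High replicate 1 overlapped WT Neg, and the calls were lost without ΔHx High replicate 3 (-1.73) or ΔHx Neg replicate 2 (-1.69) in ΔHx and without WT High replicate 2 (-1.96), WT High replicate 3 (-0.91), WT Neg replicate 1 (-1.41) or WT Neg replicate 2 (-1.99) in WT, where it was also lost with no filter (adjusted p = 0.0739), equal totals without Rn45s (adjusted p = 0.0572), edgeR (adjusted p = 0.0921), DESeq2 (adjusted p = 0.0745) or the compared groups alone (adjusted p = 0.0769).

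Of 8 desmosome genes, for High against Neg, 7 rose in each genotype and Pkp1 was called lower in ΔHx. All tested genes gave 21.5% higher and 21.1% lower in ΔHx, and 22.6% and 21.8% in WT. In Mid against Neg 6 rose in each genotype (all genes 17.9% in ΔHx, 17.4% in WT). In High against Mid 3 rose and 2 fell in ΔHx (all genes 13.3% and 12.3%), and 2 rose and 1 fell in WT (all genes 12.1% and 12.4%). The WT fall, 12.5% of the 8 genes, was near the share of all genes. Dsp had 2089, 2386 and 2443 normalised reads in ΔHx High, 1041, 1215 and 1831 in ΔHx Mid and 518, 377 and 359 in ΔHx Neg. It had 3019.8, 2917 and 2046 normalised reads in WT High, 996, 1380.2 and 1093 in WT Mid and 515, 468 and 361 in WT Neg. Dsp (desmoplakin), which links the plaque to keratin filaments, stepped down from High through Mid to Neg without overlap. It rose 5.52-fold in ΔHx (log2 change 2.48 ± 0.20, adjusted p = 1.25e-08) and 5.94-fold in WT (log2 change 2.56 ± 0.20, adjusted p = 6.08e-09) for High over Neg. Dsc2 had 1187, 939 and 996 normalised reads in ΔHx High, 888, 619 and 732 in ΔHx Mid and 299, 269.7 and 333 in ΔHx Neg. WT embryos gave 908, 900.2 and 1029 in High, 577, 873 and 966 in Mid, with 252, 239 and 264 in Neg. Dsc2, a desmosomal cadherin, rose 3.46-fold in ΔHx and 3.76-fold in WT for High over Neg; its High against Mid call in ΔHx (0.49) was lost without ΔHx High replicate 1 (0.39), ΔHx High replicate 3 (0.52), ΔHx Mid replicate 2 (0.36) or ΔHx Mid replicate 3 (0.48). It was also lost with no filter (adjusted p = 0.0545).

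In ΔHx embryos Dsg2 had 706, 817 and 618 normalised reads in High, 899, 1156 and 1172 in Mid, with 292, 339.7 and 373 in Neg. The WT values were 958, 887 and 683 in High, 675, 1100.3 and 717 in Mid, with 356, 309 and 326 in Neg. Dsg2, the partner cadherin, was called higher in High (1.09 log2 in ΔHx, 1.34 in WT) and in Mid (1.68 in ΔHx, 1.30 in WT) than in Neg. In ΔHx it was lower in High than in Mid (-0.59 ± 0.18, adjusted p = 0.0182), a call lost without ΔHx High replicate 3 (-0.49), ΔHx Mid replicate 2 (-0.53) or ΔHx Mid replicate 3 (-0.52), and WT gave 0.04; the difference between genotypes was not called (adjusted p = 0.699). Jup had 760.3, 908 and 767 normalised reads in ΔHx High, 1233, 1083 and 1360.4 in ΔHx Mid and 445, 486 and 595 in ΔHx Neg. For WT the values were 717, 918 and 759 in High, 897, 1309 and 1232 in Mid, with 484, 624 and 617 in Neg. Jup (plakoglobin), which serves both desmosomes and adherens junctions, was highest in Mid in mean, with overlap of High and Mid in WT, and held 2.41 times the Neg mean in ΔHx Mid and 1.99 times in WT Mid. High against Mid gave -0.59 ± 0.16, adjusted p = 0.00814, in ΔHx and -0.51 ± 0.16, adjusted p = 0.0206, in WT. The WT call was lost without WT High replicate 1 (-0.44), WT High replicate 3 (-0.48), WT Mid replicate 2 (-0.41) or WT Mid replicate 3 (-0.45). It was also lost with equal totals without Rn45s (adjusted p = 0.0598) or the compared groups alone (adjusted p = 0.0778). The WT call for High against Neg (0.47) was lost without WT High replicate 2 (0.37) or WT Neg replicate 1 (0.35). Among the plakophilins, Pkp2 was a High gene (0.78 log2 over Neg and 0.79 over Mid in ΔHx, 0.71 and 0.75 in WT), Pkp3 and Pkp4 were called higher than Neg in both gates, and Pkp1 had 2 reads over ΔHx High against 37 over ΔHx Neg, a ratio of 21.8 per depth for Neg over High (exact 95% interval 5.62 to 187, counting error only).

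Of 5 tested polarity genes 1 rose and 1 fell in High against Neg in each genotype, a share near that of all tested genes (21.5% higher and 21.1% lower in ΔHx, 22.6% and 21.8% in WT). Crb2, a Crumbs protein that mouse epiblast cells need to leave the primitive streak, and Crb3, the short Crumbs protein of mature epithelia, had opposite orders. Crb2 lies at chr2:37776249-37799103, + strand. The 250 bases before its RefSeq start (chr2:37775999-37776248 on the + strand), shown because Crb2 ran against most other members, hold no CAGGTG and so have no capitals.
Crb2: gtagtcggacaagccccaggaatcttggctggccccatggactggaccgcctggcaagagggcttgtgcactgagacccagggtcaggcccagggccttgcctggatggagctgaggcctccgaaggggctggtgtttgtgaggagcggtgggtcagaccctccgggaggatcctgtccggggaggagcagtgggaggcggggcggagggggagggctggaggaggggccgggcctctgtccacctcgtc
Crb2 had 170.1, 198 and 196 normalised reads in ΔHx High, 207, 231 and 263 in ΔHx Mid and 1202, 1035 and 945 in ΔHx Neg. It had 126, 222 and 186 normalised reads in WT High, 301, 216 and 286 in WT Mid and 847, 861 and 968 in WT Neg. Every Neg library stood above every High and Mid library. Crb2 fell by 2.48 ± 0.18 log2 in ΔHx High (adjusted p = 3.86e-09) and by 2.35 ± 0.18 in WT High (adjusted p = 5.98e-09) against Neg. Its High against Mid call in WT (-0.61 ± 0.18, adjusted p = 0.0195) was lost without WT High replicate 1 (-0.38), WT Mid replicate 1 (-0.52) or WT Mid replicate 3 (-0.55). It was also lost with the compared groups alone (adjusted p = 0.147).

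Crb3 had 418, 529.8 and 395 normalised reads in ΔHx High, 312, 392 and 452 in ΔHx Mid and 96.0, 86.8 and 138 in ΔHx Neg. In WT it stood at 513, 563 and 453 in High, 303, 431 and 401 in Mid, with 78.8, 102 and 97.8 in Neg. Crb3 rose 4.18-fold in ΔHx High and 5.48-fold in WT High over Neg (log2 change 2.07 ± 0.20, adjusted p = 1.34e-07, and log2 change 2.44 ± 0.20, adjusted p = 1.23e-08), with High and Neg apart. Per kb, Crb3 over Crb2 was 12.6 ± 1.78 in ΔHx High, 8.65 ± 0.621 in ΔHx Mid and 0.546 ± 0.197 in ΔHx Neg, against 15.9 ± 4.86 in WT High, 7.75 ± 2.63 in WT Mid and 0.551 ± 0.0702 in WT Neg (SD, n = 3 each). The Neg cells alone thus held more Crb2 than Crb3 transcript. Crb2 shares exon bases with Dennd1a and Crb3 with Dennd1c, each on the other strand, so part of their reads could belong to those genes. The 7 nascent and lateral mesoderm markers, which also differed between gates, summed to 447 to 827 in High, 3223 to 6640.3 in Mid and 6063 to 7370.3 in Neg; their part in the Crb2 values was not tested.

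Pard3 and Pard6b, parts of the Par complex at the upper border of epithelial cells, were called in none of the 6 gate comparisons. In ΔHx embryos Pard3 had 552, 613 and 393 normalised reads in High, 506, 689 and 647 in Mid, with 662, 650.4 and 699 in Neg. The WT values were 531, 754 and 509 in High, 711, 615 and 720.1 in Mid, with 708, 738 and 616 in Neg. Its WT gates overlapped. Pard6b had 357, 312 and 259.8 normalised reads in ΔHx High, 327, 297 and 356 in ΔHx Mid and 372, 393 and 362 in ΔHx Neg. WT Pard6b values were 239, 394 and 419 in High, 384, 269 and 387 in Mid, with 244, 371 and 399 in Neg. The WT gates overlapped for this gene as well. Crb1 had 21.9, 11.8 and 7.42 normalised reads in ΔHx High, 0, 11.7 and 1.14 in ΔHx Mid and 3.35, 10.3 and 1.03 in ΔHx Neg. The WT libraries held 17.98, 9.10 and 23.0 in High, 0, 0.955 and 0 in Mid, with 9.85, 17.2 and 8.15 in Neg. Crb1, a Crumbs protein of the retina, was low throughout and was called in WT alone, with 1 read over the 3 WT Mid libraries against 51 over WT High (ratio of High over Mid per depth 48.7, exact 95% interval 8.36 to 1961) and 34 over WT Neg (ratio of Neg over Mid 34.3, interval 5.75 to 1392, counting error only).

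All 5 epithelial regulators were called higher in WT High than in WT Neg, and 4 in ΔHx, beside 22.6% of all tested genes in WT and 21.5% in ΔHx. Esrp1 had 1446, 1559 and 1724 normalised reads in ΔHx High, 710.0, 765 and 972 in ΔHx Mid and 393, 461 and 446 in ΔHx Neg. It had 1566, 1765 and 1639 normalised reads in WT High, 743, 935 and 822 in WT Mid and 424, 432 and 417 in WT Neg. Esrp1, which sets epithelial splice forms, fell into 3 separate bands by gate, with 3.64-fold in ΔHx (log2 change 1.86 ± 0.12, adjusted p = 7.67e-10) and 3.91-fold in WT (log2 change 1.96 ± 0.12, adjusted p = 2.89e-10) for High over Neg. Esrp2 had 138, 190.2 and 122 normalised reads in ΔHx High, 149.8, 98.5 and 145 in ΔHx Mid and 24.6, 36.4 and 40.3 in ΔHx Neg. In WT embryos it had 149.9, 145 and 160.4 in High, 107, 116 and 122 in Mid, with 17.2, 42.6 and 24.5 in Neg. Esrp2, its relative, was called higher in High and in Mid than in Neg in both genotypes and overlapped between ΔHx High and ΔHx Mid; it shares exon bases with Nfatc3 on the other strand. Per kb Esrp2 was 0.105 ± 0.0280 of Esrp1 in ΔHx High and 0.178 ± 0.0469 in ΔHx Mid, and 0.100 ± 0.00941 in WT High and 0.152 ± 0.0145 in WT Mid.

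In ΔHx embryos Grhl2 had 517, 346 and 601 normalised reads in High, 241, 212 and 217 in Mid, with 215, 265 and 273 in Neg. The WT values were 297, 515 and 383 in High, 151, 256 and 241 in Mid, with 238, 301 and 239 in Neg. Grhl2, a Grainyhead-like factor that activates Cdh1 and claudin genes, was a gene of High: it rose by 1.09 ± 0.23 log2 in ΔHx and 0.88 ± 0.23 in WT over Mid. In High against Neg it gave 0.93 ± 0.23, adjusted p = 0.00313, in ΔHx and 0.59 ± 0.23, adjusted p = 0.0448, in WT, where the groups overlapped. That WT call was lost without WT High replicate 2 (0.39), WT High replicate 3 (0.60), WT Neg replicate 1 (0.53) or WT Neg replicate 3 (0.54), or with no filter (adjusted p = 0.0626) or quantile normalisation (adjusted p = 0.160). The WT call over Mid was lost without WT High replicate 2 (0.68) or WT Mid replicate 1 (0.64), or with the compared groups alone (adjusted p = 0.0577). Grhl3 had 77.2, 148 and 79.2 normalised reads in ΔHx High, 196, 162 and 101 in ΔHx Mid and 70.3, 38.3 and 81.6 in ΔHx Neg. Its WT libraries held 151, 141 and 138 in High, 126, 145 and 174 in Mid, with 75.1, 62.9 and 77.0 in Neg. Grhl3, needed in mice to close the neural tube, was called higher in Mid than in Neg in both genotypes (1.28 in ΔHx, 1.03 in WT), the WT call being lost without WT Neg replicate 2 (0.94) and with quantile normalisation (0.80, adjusted p = 0.0545); in High it gave 0.67 ± 0.31, adjusted p = 0.0887, in ΔHx and 1.00 ± 0.31, adjusted p = 0.0130, in WT (0.61 and 0.121 with quantile normalisation). Grhl1 was called higher in both gates than in Neg in each genotype, at group means of at most 66.7.

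Sorting the 46 tested members by their calls gave, in ΔHx, 15 genes higher in High than in both other gates, 4 higher in Mid than in both, 13 higher in High and in Mid than in Neg with no call between High and Mid, 1 higher in Neg than in both, and 13 others. In WT the numbers were 14, 2, 18, 2 and 10. The High genes of WT were Cldn3, Cldn6, Cldn9, Cldn11, Tjp1, F11r, Dsp, Pkp2, Krt7, Krt8, Krt18, Krt19, Esrp1 and Grhl2, and 12 of them, without Cldn3 and Tjp1, were in that class in ΔHx as well. In all, 37 members had the same class in both genotypes. No share of these classes over all tested genes is given here, so the numbers do not set the members apart. A gene's class rests on thresholds, so a class that differs does not show that the genotypes differ.

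The gate changes of the 2 genotypes, which share no library, were compared over these genes. In High against Neg 35 members were called in both with the same direction, 94.6% of the ΔHx calls and 89.7% of the WT calls. In Mid against Neg 30 were, which is all ΔHx calls and 88.2% of the WT calls, and in High against Mid 14, 70.0% of the ΔHx calls and 77.8% of the WT calls. None was called in opposite directions in these 3 pairs of comparisons. Over all 14711 tested genes the genes called in both with the same direction were 82.8% of the ΔHx calls and 79.4% of the WT calls for High against Neg. They were 72.2% and 75.4% for Mid against Neg, and 63.3% and 66.4% for High against Mid. Across the 46 genes, which are not independent replicates, the ΔHx and WT log2 changes had Pearson's r of 0.929 for High against Neg, 0.871 for Mid against Neg and 0.829 for High against Mid. The same r over all tested genes was 0.906, 0.829 and 0.796.

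**Figure D3:**
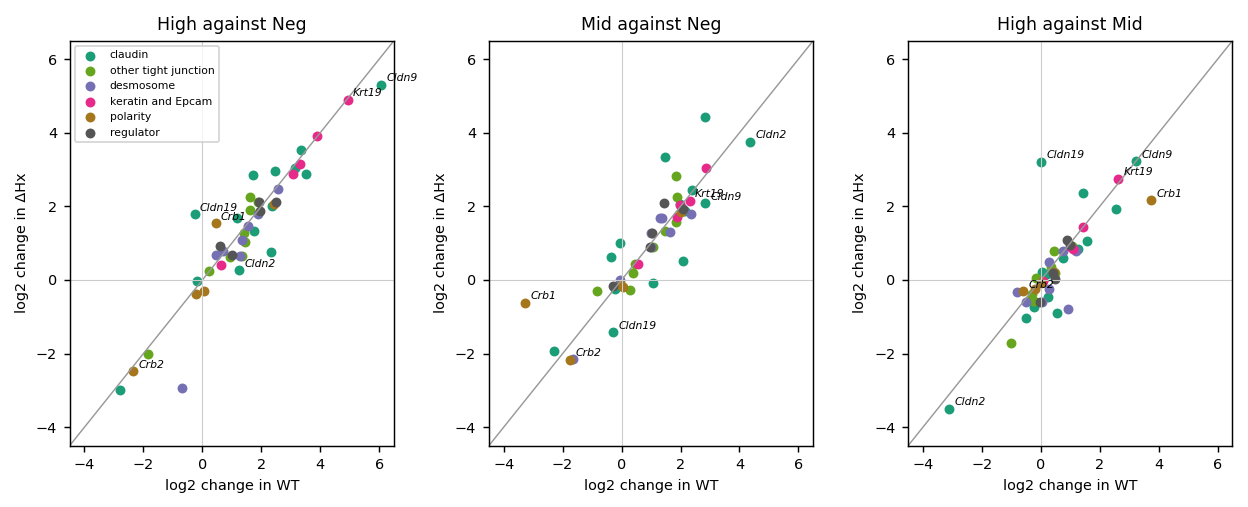
Each point is 1 of the 46 tested members, with its log2 change between 2 gates in ΔHx on the vertical axis and in WT on the horizontal axis, coloured by role; the diagonal marks equal changes. Most points lie along the diagonal, while Crb1 lies off it in Mid against Neg and Cldn19 in High against Mid, both with few reads. Directions were the same in 44 of the 46 genes for High against Neg, 41 for Mid against Neg and 39 for High against Mid. Cldn9 and Krt19 are at the upper end of High against Neg. Cldn2 is at the upper end of Mid against Neg and the lower end of High against Mid, and Crb2 is below 0 in both comparisons with Neg.

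Ratios within a library, which do not depend on how libraries were scaled, separated the gates as well. Cldn2 over Cldn7, per kb, was 0.0102 to 0.0211 in ΔHx High, 0.0808 to 0.130 in ΔHx Mid and 0.0223 to 0.0452 in ΔHx Neg, and 0.0124 to 0.0166 in WT High, 0.102 to 0.119 in WT Mid and 0.0160 to 0.0309 in WT Neg. No Mid library came within the range of the other gates. Krt19 over Krt8 was 0.200 to 0.294 in ΔHx High, 0.0874 to 0.108 in ΔHx Mid and 0.0554 to 0.0872 in ΔHx Neg, and 0.176 to 0.232 in WT High, 0.0758 to 0.115 in WT Mid and 0.0584 to 0.0692 in WT Neg. High stood apart from the other gates in this ratio in both genotypes, and in ΔHx the lowest Mid library lay just above the highest Neg library.

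**Figure D4:**
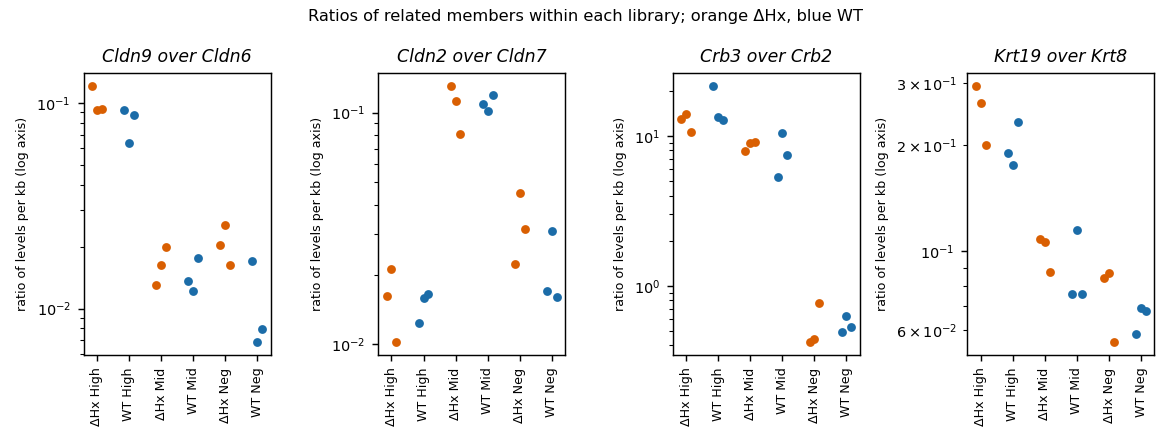
Ratios of levels per kb within each library, on log axes, for 4 pairs of related members, ΔHx orange and left of WT, blue, in each gate. Cldn9 over Cldn6 and Krt19 over Krt8 are highest in High, Cldn2 over Cldn7 is highest in Mid, and Crb3 over Crb2 is below 1 in the 6 Neg libraries alone.

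The helix deletion was compared with WT within each gate. Because Neg cells had no tag signal and a gate holds several cell types, dependence of these genes on the helix was not tested directly. No member was called in any gate by limma, beside 0.122% of all tested genes called in High, 0.401% in Mid and 0.245% in Neg, so that a list of 46 genes would hold less than 1 call at the background share. By limma an unadjusted p under 0.05 was reached by 4 of the 46 members in High, 2 in Mid and 1 in Neg. Of all 14711 tested genes, 1157, 1171 and 614 reached it. With edgeR and DESeq2 on the recovered reads 0 members were called, and 4, 3 and 1 were under that unadjusted p by each tool. Over all tested genes that was 1150, 1156 and 575 by edgeR, and 1304, 1262 and 653 by DESeq2. The lowest adjusted p of a member was 0.353 in High, 0.495 in Mid and 0.580 in Neg, and the median log2 change of ΔHx over WT was -0.08, 0.03 and 0.03, beside medians of 0.0002, 0.0042 and 0.0090 over all tested genes. Libraries of the 2 genotypes did not overlap for 4 members in High, 4 in Mid and 3 in Neg, beside 10.9%, 10.9% and 12.7% of all tested genes.

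A missed threshold does not show equal levels, so the 95% intervals of the changes matter. They lay within a 2-fold change either way for 30 of the 46 members in each gate. Of members averaging at least 100 normalised reads in a gate, they did so for 30 of 34 in High, 30 of 33 in Mid and 24 of 24 in Neg. For Krt8 the interval of ΔHx over WT ran from -0.34 to 0.17 log2 in High, from -0.35 to 0.16 in Mid and from -0.17 to 0.33 in Neg. For Cldn6 it ran from -0.42 to 0.17 in High, from -0.27 to 0.33 in Mid and from -0.34 to 0.25 in Neg.

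The members nearest to a call in High were Cldn19, Cldn7, Tjp1 and Pkp4. Cldn19, which averaged 13.6 ± 2.03 normalised reads in ΔHx High against 1.52 ± 2.63 in WT High (SD, n = 3 each), had a change of 3.03 ± 0.94, adjusted p = 0.353. Cldn7 gave -0.39 ± 0.15, adjusted p = 0.505, and its ΔHx High libraries lay below all WT High libraries. Tjp1 gave -0.27 ± 0.11, adjusted p = 0.523, also without overlap, and Pkp4 -0.47 ± 0.20, adjusted p = 0.565. In Mid, Cldn23 averaged 52.6 ± 21.9 in ΔHx against 19.3 ± 6.27 in WT (1.37 ± 0.56, adjusted p = 0.495), and Dsg2 gave 0.40 ± 0.18, adjusted p = 0.577. In Neg, Cldn9 averaged 29.2 ± 8.79 in ΔHx against 14.6 ± 5.48 in WT (0.97 ± 0.31, adjusted p = 0.580). None of these 7 differences passed the adjustment. The change of the genotype effect between gates was not called for any member either, by limma, edgeR or DESeq2. Limma called 0%, 0.00680% and 0.0136% of all tested genes for High against Neg, Mid against Neg and High against Mid. Its unadjusted p was under 0.05 for 1, 2 and 3 members in these comparisons, beside 463, 636 and 902 of all 14711 tested genes.

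**Figure D5:**
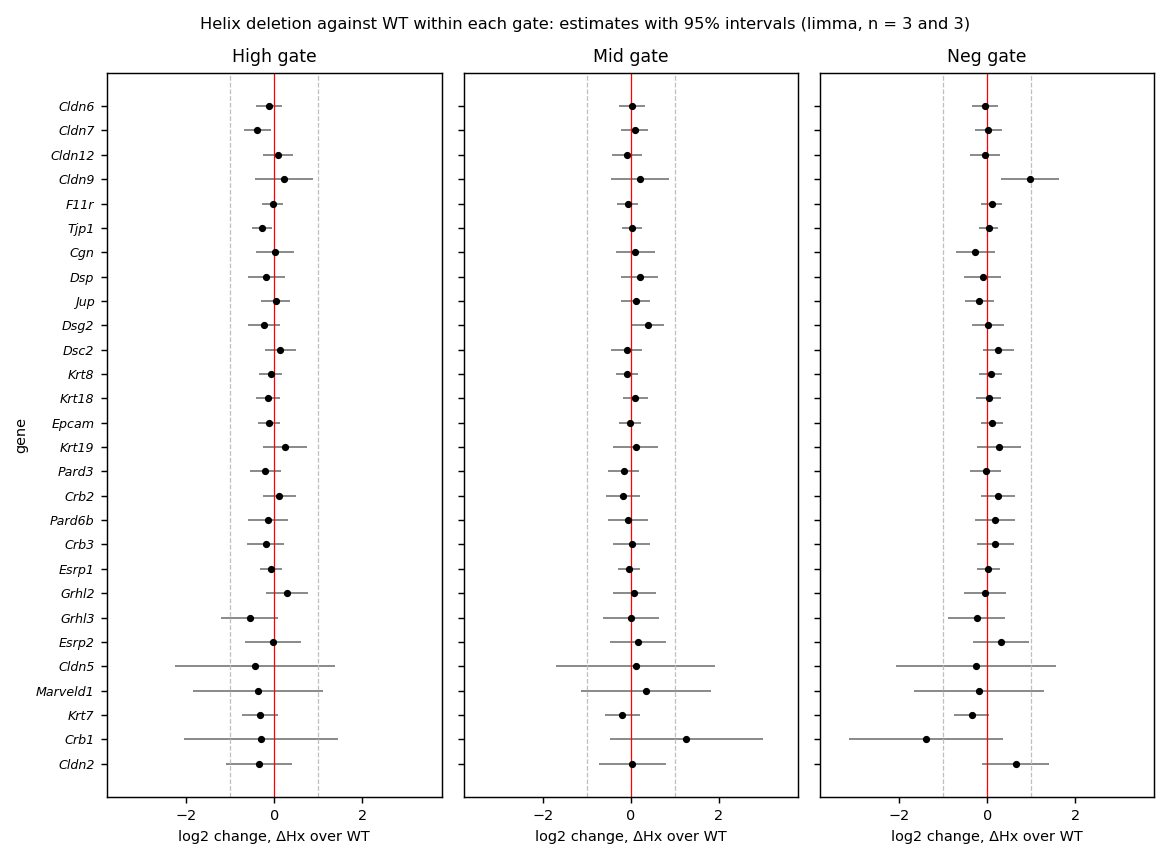
Log2 change of ΔHx over WT in each gate for the 28 members described one by one, with 95% intervals from limma (n = 3 and 3); dashed lines mark a 2-fold change. Most intervals cross 0, and the wide ones belong to Cldn5, Marveld1 and Crb1, which had few reads.

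Genes that work with the members differed in how closely they followed them. Of 10 adherens junction genes, which join cells through cadherins and catenins, 4 were called higher and 1 lower in ΔHx High than in ΔHx Neg, and 3 and 1 in WT. Cdh1 (E-cadherin) averaged 7840.4 ± 723 in ΔHx High and 2449 ± 144 in ΔHx Neg, and 7705 ± 272 in WT High and 2571 ± 190.2 in WT Neg (log2 change 1.68 ± 0.11, adjusted p = 1.09e-09, in ΔHx and 1.59 ± 0.11, adjusted p = 1.72e-09, in WT). Ctnnb1 (β-catenin), by contrast, gave -0.02 ± 0.08 in ΔHx and -0.07 ± 0.08 in WT, and Ctnna1 (α-catenin) 0.38 (adjusted p = 0.0111) and 0.19 (adjusted p = 0.201). Of 14 further tight junction genes 4 rose and 1 fell in ΔHx, and 4 and 2 in WT; Amot rose by 1.00 in ΔHx and 1.76 in WT, Amotl2 by 0.76 and 0.52, and Lsr gave 0.10 and 0.15 without a call. Of 12 further polarity genes 4 rose and 2 fell in ΔHx, and 4 and 3 in WT, among them Mpp5 (0.47 in ΔHx, 0.82 in WT) and Llgl1 (-0.45, -0.39), both called, and Lin7c (-0.29, -0.45), called in WT. Beside them stand 21.5% of all genes called higher and 21.1% lower in ΔHx, and 22.6% and 21.8% in WT.

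Of 8 further desmosome and plakin genes 3 were tested, and 2 rose in each genotype. Perp, a desmosome-linked membrane protein, rose by 2.52 ± 0.19 log2 in ΔHx and 2.85 ± 0.19 in WT for High over Neg, Evpl (envoplakin) by 2.08 and 1.80, and Ppl (periplakin) was not called (-0.16, 0.94), and the other 5 were too low to test. Of 12 epithelial regulators and surface proteases or their inhibitors, 9 rose in ΔHx and 8 in WT. Spint2, a protease inhibitor, rose by 1.29 in ΔHx and 1.56 in WT, Ap1m2, which sorts proteins to the lower side of epithelial cells, by 0.49 and 0.62, and Spint1 by 0.65 in ΔHx, with 0.37 (adjusted p = 0.0560) in WT. Of 11 mesenchymal genes 9 fell and 1 rose in ΔHx, and 10 fell and 1 rose in WT, with a median of -2.31 in ΔHx and -2.50 in WT. For these lists too, all tested genes gave 21.5% higher and 21.1% lower in ΔHx, and 22.6% and 21.8% in WT.

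Fn1 (fibronectin) averaged 2473 ± 107 in ΔHx High, 11796 ± 1601 in ΔHx Mid and 12484 ± 1633 in ΔHx Neg, and 2884 ± 396, 10515 ± 863 and 12621 ± 503 in the same gates of WT (SD, n = 3 each), so that Mid, although high in junction genes, was close to Neg (-0.08 ± 0.11, adjusted p = 0.607, in ΔHx and -0.27 ± 0.11, adjusted p = 0.0770, in WT). Vim (vimentin), the filament of mesenchymal cells, fell in High by 1.03 log2 in ΔHx and 1.54 in WT, and in Mid by 1.10 and 1.23. Pdgfra fell in High by 4.38 in ΔHx and 4.65 in WT, and gave -0.48 and 0.04 in Mid without a call. Between ΔHx and WT, the lowest adjusted p among the tested genes of these 6 lists was 0.492 in High, 0.0605 in Mid (Klf5, -1.19) and 1.00 in Neg.

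Promoter letters were compared over windows of 300 bases (250 before to 50 after each RefSeq start), on both strands. Of the 55 members 40 had a window, 55 windows in all. CAGGTG was in 41.8% of them, against 20.2% of all 32851 windows, and in 19 of the 40 genes (47.5%), against 22.6% of all 27025 genes with a window. These 27025 outnumber the 24498 genes measured here and were not limited to tested genes, so the members have no like set beside them. The 19 were Krt7, Krt8, Krt18, Epcam, Cldn3, Cldn4, Cldn6, Cldn7, Cldn14, Ocln, F11r, Tjp3, Marveld2, Dsp, Pkp4, Crb3, Pard3, Pard6b and Grhl3. Among them Pard3 and Pard6b were called in no gate comparison, and Cldn14 was not tested. Among the factors known to bind this letter run, Snai1 gave a High against Neg change of -2.78 log2 in ΔHx and -2.87 in WT, Snai2 of -5.08 and -5.10, Zeb1 of -0.97 and -2.06, and Zeb2 of -0.69 and -1.22. The forkhead letters TGTTTAC or TATTTAC were in 1.82% of member windows (Marveld2 alone) and 6.54% of all. The Grainyhead letters AACCGGTT were in no member window and 0.146% of all, and AACNNGTT, which includes them, in 3.64% (Cgn and Cldn5) and 4.20%. A match is not a bound site, and a miss says only that the letters are not in this window. The part of Snai1, Snai2, Zeb1 and Zeb2 in the levels of the members was not tested.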

How the data were processed

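RNA of pools of 1000 sorted cells was made into SMART-Seq2 libraries and read as 75 base reads, per the labels' protocols. The deposited values are a signal, read counts per gene divided by library size factors by the authors. The submitters' processing notes name STAR 2.5.2a, HTSeq 0.6.1, DESeq, DESeq2 and the build mm10; counter settings are not given in the sources used here. SMART-Seq2 does not keep strand. All 440964 values of 24498 genes gave whole reads within 1e-06. None of the tests used the 5 counter lines. Relative to the gene and counter lines summed, no feature held 7.17 to 12.1%, ambiguous 0.495 to 0.756% and not uniquely aligned 37.7 to 41.3%. Rn45s held 23.7 to 44.0% of reads in genes. Of the table's columns of values 0 belonged to no sample.

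Values were tested as log2(value + 1) with limma 3.58.1 in R 4.3.3 (6 group means over 18 libraries, trended variance, Benjamini-Hochberg adjustment over 14711 genes reaching 10 normalised reads in 3 or more libraries). A level per kb is a value divided by the length of the GENCODE principal transcript. Errors of log2 changes are standard errors. Alternatives were pseudocounts of 0.5 and 5, no filter, a filter at 50, quantile normalisation, equal totals without Rn45s, a replicate block, edgeR 4.0.16 and DESeq2 1.42.0 on the recovered reads, the compared groups alone, and each library left out; the code was tested on simulated data. Replicate numbers come from the labels, which do not say that they pair sorts. Nothing says whether libraries of a group came from separate litters, so p-values measure the spread between these pools. Intervals on reads cover counting error only, and 3 reads correspond to 2.47 to 4.11 normalised reads.

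The members and lists were chosen with earlier results of these data known. Values in every library are given for the 4 members of each role with the highest mean, for members called between genotypes and for the 3 largest rises and falls of each WT gate comparison, which gave 29 genes, 28 of them described here; 1 member is counted throughout but not reported here by name, nor is 1 sequence; genes of other lists are named for the 3 highest means. Other members, Klf5, Snai1, Snai2, Zeb1 and Zeb2 were named after their values were seen. Promoters came from RefSeq's table on GRCm38.p6.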

Additional observations from a re-analysis of the deposited data

How the results depend on the processing

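The direction of each count and of each of the 29 genes' calls was kept under every alternative run, and 0 members were called between ΔHx and WT, or for a change of that difference between gates, under each of them. The numbers of members called higher stayed within 1.5 times; those called lower were few and moved. In High against Neg the members called lower were 1 in ΔHx and 1 in WT with the filter at 50 (4 and 3 as reported). In Mid against Neg they were 2 in ΔHx with a pseudocount of 5, with no filter, with DESeq2 and with the compared groups alone (1 as reported), and 1 in WT with the filter at 50 (3 as reported). In High against Mid they were 1 in WT with the compared groups alone (3 as reported). A higher filter tests fewer genes; the cause of the other shifts was not tested.

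Leaving out 1 library at a time gave, for High against Neg, 30 to 34 higher and 2 to 4 lower in ΔHx and 33 to 35 higher and 1 to 3 lower in WT. For Mid against Neg it gave 28 to 29 higher and 1 to 2 lower in ΔHx and 26 to 30 higher and 2 to 4 lower in WT, and for High against Mid 12 to 16 higher and 3 to 5 lower in ΔHx and 12 to 15 higher and 1 to 4 lower in WT. The libraries behind the shifts of the lower counts by more than 1.5 times were ΔHx Neg replicate 2 (2 for High against Neg), ΔHx Mid replicate 2 (2 for Mid against Neg), WT High replicate 3 (1 for High against Neg), and WT High replicate 1 and WT Mid replicate 3 (1 each for High against Mid). Over the 29 genes, 75 combinations of a called change and a setting fell short of the threshold and 1870 did not change sides.

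Deviations of same-numbered libraries had correlations of -0.1712 to 0.2913, over 0.1 for every pair in 0 of 9 comparisons. Between genotypes they ran from -0.1712 to 0.082. Between gates of a genotype all were positive, from 0.0156 to 0.2913, with 0.1745, 0.097 and 0.2913 in WT High against Mid. These values do not settle whether gates of the same number share a sort. The labels do not say so either, and the number was not taken as a pairing. With the number as a replicate block, the calls were 32 higher and 4 lower in ΔHx and 36 and 3 in WT for High against Neg, 29 and 1 in ΔHx and 29 and 3 in WT for Mid against Neg, and 16 and 5 in ΔHx and 15 and 3 in WT for High against Mid. With scaling to equal totals without Rn45s the median High against Neg change of all genes was 0.111 log2 in ΔHx and 0.128 in WT (0.0062 and 0.0176 as reported). Genes under about 20 normalised reads rest on few reads.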
